A study of Mus musculus with 80 samples.

Results

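The genes described here are 10 transcription factor genes of mouse embryonic stem (ES) cells, chosen by name: the core pluripotency factors Pou5f1, Nanog and Sox2, and the naive pluripotency factors Klf4, Klf2, Esrrb, Zfp42, Tbx3, Tfcp2l1 and Prdm14. They are 10 of the 22556 genes in the deposited expression tables. Their levels were read in 80 libraries of chromatin-associated RNA, a nuclear fraction rich in unfinished transcripts, as counts-per-million (CPM) values. 9 of the 10 were above 0 in all 80 libraries, and Sox2 was listed at 0 in every one.

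The study asked how RNA methylation and nuclear RNA decay act on Xist, the noncoding RNA that silences an X chromosome, in female ES cells made from a Cast x 129S cross. All lines carry an inducible promoter (TetOn) in front of Xist, so that doxycycline (Dox) switches Xist on from one X, and all carry a protein tagged with FKBP12 F36V, which the compound dTAG-13 sends to the proteasome. The cells were grown on inactivated fibroblast feeders in medium with LIF and serum. Each line had 4 treatments: none, dTAG-13 for 26 h, Dox for 24 h, and dTAG-13 for 2 h followed by dTAG-13 with Dox for 24 h.

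The METTL3 line had 4 clones, of which G4 and H1 carry the tag at the N terminus of METTL3 and C3 and H5 carry it at the C terminus. METTL3 is the catalytic subunit of the complex that writes N6-methyladenosine (m6A), and its TetOn promoter sits on the Cast allele of Xist. YTHDC1, a nuclear reader of m6A, was tagged in clones Y9F and Y12H. ZCCHC8, a scaffold of the nuclear exosome targeting complex, was tagged in clones Z4F and Z12H. In both of these lines the promoter sits on the 129S allele, and this Xist carries a Bgl stem-loop array in exon 7. ZFC3H1, a part of the polyA tail exosome targeting connection, was tagged in clones 8H and 11A, with the promoter on the Cast allele. YTHDC1 was measured in 2 experiments on the same 2 clones, once in a table shared with ZCCHC8 and once in a table of its own, named here the shared and the own table. From clone H5 of the METTL3 line, 4 further lines were made by adding a GFP-METTL3 transgene at the Rosa locus, either wild type (WT) or with the catalytic mutation D395A. WT_P2B3 and D395A_1F kept both X chromosomes (XX). In WT_1A and D395A_9F only the X with the inducible Xist was present (XiO), so there Dox switches Xist on from the only X. Each transgene line is a single clone measured in 2 experiments, so line and clone cannot be told apart. The p-values for these lines measure only the spread between experiments on single clones, pooled over the WT and D395A clones fitted together.

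Pou5f1 (also called Oct4), Sox2 and Nanog bind together at the enhancers of ES cells and hold the pluripotent state. The naive factors, several of them sustained by LIF signalling through STAT3, keep ES cells close to the state of the early epiblast, and their levels fall as cells move on to the formative state that precedes lineage choice. Many of the mRNAs concerned are known to carry m6A, which is written during transcription and is known to shorten the life of an mRNA.

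The total depth was 8.58 to 34.4 M reads per library, with a median of 22.5, so that 1 read was worth 0.0291 to 0.117 CPM. Every pair of replicate libraries differed beyond counting noise. The share of reads on genes spanning under 3 kb was 0.498 to 4.57% in the METTL3 line and 0.524 to 2.46% in the others. In clone C3 it was 0.498% with Dox alone and 4.57% with dTAG-13 and Dox. Markers of feeder fibroblasts summed to 397 to 2211 CPM over 14 genes, with a median of 747, but only 6 of the 14 reached a mean of 1 CPM. Mesoderm markers summed to 33.3 to 95.3 CPM in the 8 libraries of WT_1A and to at most 14.1 CPM in the others. Fewer cells of a type and less RNA per cell cannot be told apart in such bulk libraries. The compound removes protein, so the RNA of the tagged gene holds no check of the depletion.

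Methylation was not measured in these tables, but the preferred core of the m6A motif, GGACT, can be read in the mature transcripts. Across 21875 protein-coding genes, 86.7% held at least 1 such site in the annotated mRNA with the longest coding part, with a median of 1.01 sites per kb. Tfcp2l1 held 16 sites, or 1.73 per kb, and Klf4 held 5, or 1.65 per kb. At or above these densities were 18.8% and 21.0% of genes. Esrrb had 1.91 per kb, Nanog 1.81, Sox2 1.46, Tbx3 1.44 and Zfp42 1.09, whereas Pou5f1 had 0.734, Klf2 0.541 and Prdm14 0.390, each of the last 3 with a single site. Klf4 and Tfcp2l1 had the largest called changes of the members with dTAG-13 in the fits without an experiment block in the transgene lines. Windows of 25 bases around coding sites of these 2 genes are shown on the transcribed strand of the GRCm38 (mm10) sequence, with the motif in capitals. A match is a description of the letters and not a measured site.
Klf4 chr4:55530143-55530167, minus strand: ctccccaccaGGACTacccctacac
Klf4 chr4:55530100-55530124, minus strand: tgaacagcagGGACTgtcaccctgg
Tfcp2l1 chr1:118652334-118652358, plus strand: ggaagctaggGGACTtccaagatct
Tfcp2l1 chr1:118656459-118656483, plus strand: atgagagtggGGACTactcggagca

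The counts were taken over whole transcript spans, introns included, on the strand of the gene. In GRCm38 the members lie at chr17:35506031-35510777 (Pou5f1), chr6:122707488-122714633 (Nanog), chr3:34650004-34652460 (Sox2), chr4:55527136-55532475 (Klf4), chr8:72319061-72321654 (Klf2), chr12:86361116-86521628 (Esrrb), chr8:43295066-43307009 (Zfp42), chr5:119670861-119684724 (Tbx3), chr1:118627944-118685168 (Tfcp2l1) and chr1:13113427-13127163 (Prdm14). Klf2 is the shortest measured span at 2.59 kb, and Esrrb the longest at 161 kb. The span of Sox2 lies wholly inside Sox2ot, a long noncoding gene on the same strand at chr3:34560380-34677993. Sox2ot measured 26.3 to 133 CPM, with a median of 58.2. Of the 388 genes that lie wholly inside another gene on the same strand, 387 (99.7%) were listed at 0 in all libraries, against 946 of the other 22168 (4.27%). The zeros of Sox2 therefore carry no level of Sox2 RNA, and the gene enters no comparison below. None of the other 9 overlaps another gene. Pou5f1 and Nanog have processed copies elsewhere in the mouse genome, and since only uniquely aligned reads were kept, their levels leave out reads shared with a copy and are less certain.

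In untreated cells the highest and the lowest mean level per kb fell to the same genes in all 9 sets of libraries. Zfp42 (Rex1), a classical marker of undifferentiated ES cells, had the highest level per kb of span in all 9 sets, and its replicates did not overlap those of the next gene in any of them. It measured 41.9 ± 7.10 CPM per kb in the METTL3 line (SD, n = 4), 73.9 ± 1.85 and 61.9 ± 8.03 in YTHDC1 (shared and own table, n = 2), 75.1 ± 2.52 in ZCCHC8 and 37.8 ± 11.6 in ZFC3H1. Prdm14, which restrains FGF signalling and DNA methylation in ES cells, had the lowest mean in every set, but in D395A_1F its libraries (1.66 and 2.48 CPM per kb) overlapped those of Tbx3 (2.28 and 3.16). Its level was 2.45 ± 0.328 CPM per kb in the METTL3 line, 2.97 ± 0.305 and 1.99 ± 0.126 in YTHDC1, 2.77 ± 0.119 in ZCCHC8 and 2.00 ± 0.296 in ZFC3H1.

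Neighbours in the middle of the order could not be resolved in the METTL3 line. From the top it ran Tbx3 (8.85 CPM per kb), Klf2 (8.82), Tfcp2l1 (7.10), Nanog (6.22), Pou5f1 (4.96), Klf4 (4.73) and Esrrb (4.33), and each of these overlapped its lower neighbour among the 4 clones, except that Esrrb lay above Prdm14. In ZCCHC8 it ran Nanog (7.53), Klf2 (7.07), Pou5f1 (6.78), Tfcp2l1 (6.43), Tbx3 (5.18), Esrrb (4.44) and Klf4 (4.25), and each of the first 3 overlapped its lower neighbour. Across the 9 sets, which were scaled separately in part, the untreated mean of Tbx3 spanned 6.71-fold, that of Zfp42 5.26-fold and that of Klf4 4.35-fold. Klf2 (2.42-fold), Tfcp2l1 (2.47-fold) and Nanog (2.54-fold) varied least.

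**Figure D1:**
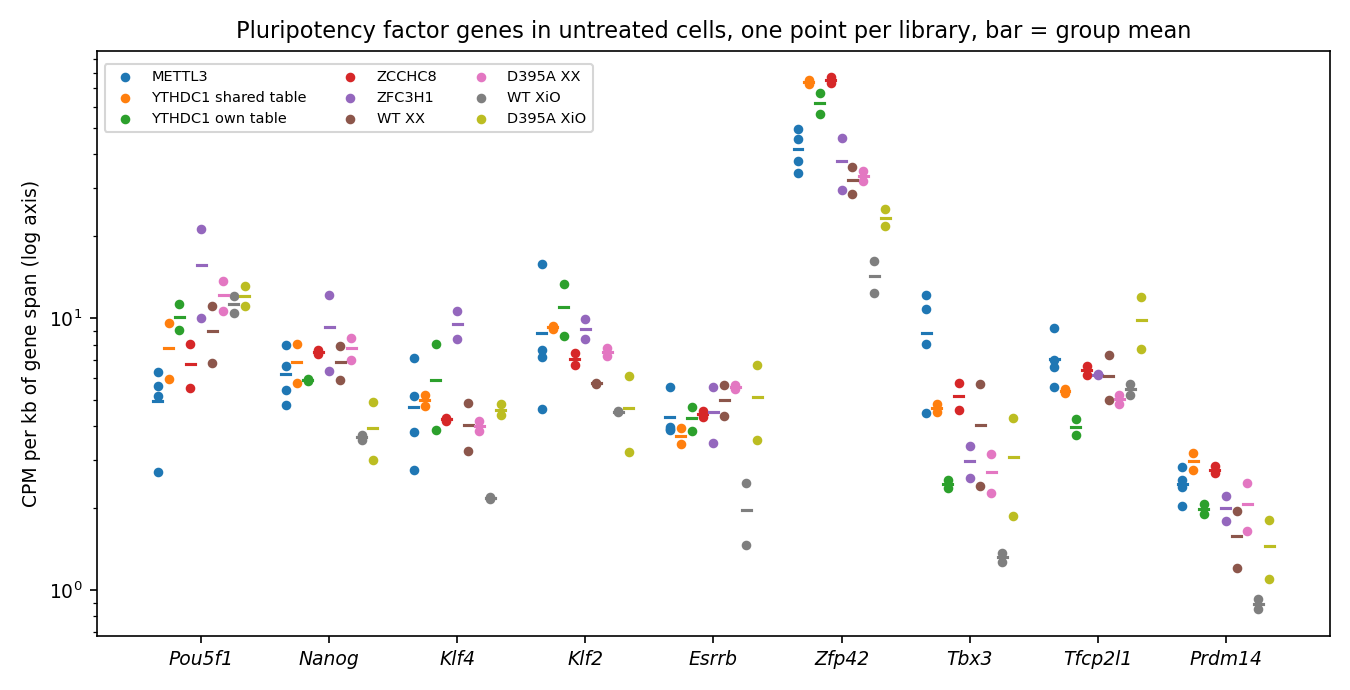
Untreated levels of the 9 measured factors, in CPM per kb of gene span on a log axis. Each point is a library, each colour a set of libraries and each bar a group mean. Zfp42 stands above the other genes of its set throughout, from 14.3 CPM per kb in the wild-type XiO line to 75.1 in ZCCHC8, and Prdm14 has the lowest mean, from 0.889 to 2.97.

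The lowest untreated levels of several naive factors were those of WT_1A, the XiO clone with the wild-type transgene. Klf4, a Krüppel-like factor that LIF sustains, measured 11.6 and 11.8 CPM there, against 23.5 and 25.8 CPM in D395A_9F, the XiO clone with the mutant transgene. The difference was 1.01 on the log2 scale (SE 0.218, limma adjusted p = 0.0285), and it was the only member called between these untreated clones, where 3.61% of all genes were called. It missed the threshold when any of the 4 experiments was left out. For 5 more members an unadjusted p under 0.05 was reached but not the adjusted threshold, all higher in D395A_9F. Among them Esrrb, an orphan nuclear receptor, measured 397 and 234 CPM against 1075 and 574 CPM (1.36, adjusted p = 0.119), and Tfcp2l1, a grainyhead-family factor downstream of LIF, 328 and 297 CPM against 686 and 440 CPM (0.81, adjusted p = 0.0840). Each is a single clone, so clone and transgene cannot be told apart, and the part of the mesoderm markers of WT_1A in this difference was not tested. Between the untreated XX clones 0 of 9 members were called by limma and 0 by edgeR, with 0 at an unadjusted p under 0.05, where 3.93% of genes were called. Between untreated ZCCHC8 and YTHDC1 0 were called by limma and 0 by edgeR, with 1 at an unadjusted p under 0.05, where 0.00% of genes were called. These differences between lines were fitted without a block, with clones or experiments as the replicates.

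The first question was whether 26 h without METTL3 moved these factors. The comparison of dTAG-13 with no treatment within each clone called 1 of 9 members, Klf4, against 23.3% of the 13367 genes tested. Without treatment, Klf4 measured 38.2, 27.5, 14.8 and 20.4 CPM in the clones G4, H1, C3 and H5. With dTAG-13 it measured 114, 65.8, 40.9 and 79.0 CPM in the same clones. Every treated clone lay above every untreated one, and the rise was 1.23 to 1.90 on the log2 scale in the single clones. The fitted rise was 1.52 (SE 0.192, limma adjusted p = 0.000405), a 2.87-fold change on the log2(CPM + 1) scale, where the median of all genes was 0.21. After scaling by the median ratio over autosomal genes, the rise of Klf4 was 1.29 (adjusted p = 0.000375). All 10 alternative settings kept this call, with values of 1.29 to 1.62.

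With Xist switched on, Klf4 rose as well, and it was again the only 1 of 9 members called, against 10.5% of genes. It measured 41.6, 45.1, 16.3 and 21.7 CPM with Dox alone (G4, H1, C3, H5) and 97.2, 70.8, 65.5 and 64.7 CPM with dTAG-13 and Dox. The groups did not overlap, and the rise in single clones was 0.64 to 1.94. The fitted rise was 1.33 (SE 0.192, limma adjusted p = 0.00445), or 2.51-fold, where the median of all genes was 0.23. The call was lost without clone G4 (adjusted p = 0.0606), without clone H5 (0.0760) and without the clone block (0.0746). With the share of reads on short genes as a covariate, the rise was 1.38 without Dox and 1.21 with Dox.

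**Figure D2:**
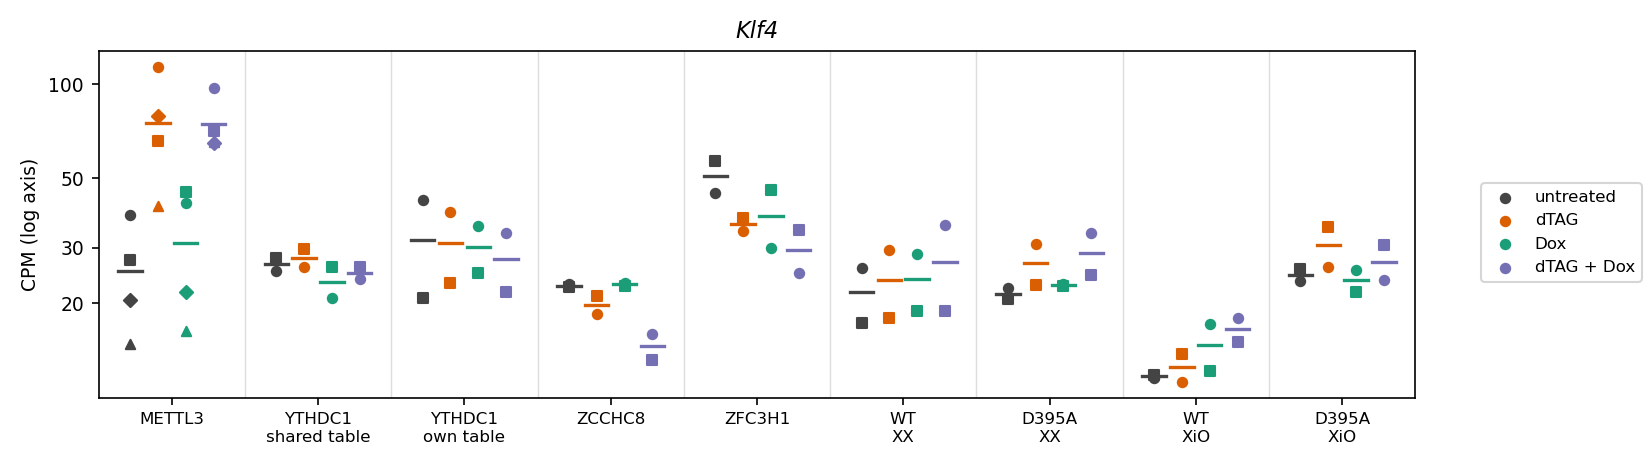
Klf4 level in every library, in CPM on a log axis, by line and treatment. Points are libraries, with the marker shape giving the replicate, and bars are group means. In the METTL3 line the mean rises from 25.2 to 74.9 CPM without Dox and from 31.2 to 74.6 CPM with Dox, whereas the lowest values with dTAG-13 and Dox in ZCCHC8 are 16.0 and 13.1 CPM.

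Of the core factors, Pou5f1 was higher with dTAG-13 in 4 of 4 METTL3 clones but did not pass the test. It measured 26.6, 12.9, 24.5 and 30.2 CPM without treatment (G4, H1, C3, H5) and 46.5, 48.3, 31.5 and 49.2 CPM with dTAG-13, so the groups did not overlap. The difference was 0.91 (SE 0.381, limma adjusted p = 0.0952), and 0.68 after median-ratio scaling. With Dox, the levels were 47.6, 39.7, 12.8 and 17.6 CPM without and 38.0, 47.1, 58.1 and 25.2 CPM with dTAG-13. The groups overlapped and the clones moved by -0.32 to 2.10, the highest being C3, whose libraries also differed in the share of reads on short genes (0.498 against 4.57%). What part that share has in the Pou5f1 values was not tested beyond the covariate fit, in which the gene was not called. Nanog measured 57.1, 38.8, 47.5 and 34.4 CPM untreated and 60.1, 36.6, 61.4 and 70.1 CPM with dTAG-13. The groups overlapped (0.34, adjusted p = 0.171). With Dox its difference was 0.51 (adjusted p = 0.0841), positive in 4 of 4 clones.

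Of the other naive factors, none passed the limma test in the METTL3 line in either comparison. With dTAG-13 alone the differences were 0.18 for Klf2, -0.14 for Esrrb, -0.10 for Zfp42, -0.05 for Tbx3, -0.04 for Tfcp2l1 and 0.23 for Prdm14, all close to or below the median of all genes. With Dox they were 0.87 for Klf2 (adjusted p = 0.0740), 0.27 for Esrrb, 0.09 for Zfp42, 0.35 for Tbx3, 0.19 for Tfcp2l1 and 0.41 for Prdm14 (adjusted p = 0.0513). All 9 members were above 0 there, but after median-ratio scaling the values were 0.63 for Klf2, 0.02 for Esrrb, -0.16 for Zfp42, 0.09 for Tbx3, -0.06 for Tfcp2l1 and 0.16 for Prdm14. Prdm14 passed the threshold with a pseudocount of 0.1 CPM and with the short-gene covariate.

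The levels of the most abundant factors overlapped between the groups. Zfp42 measured 594, 408, 545 and 453 CPM without and 531, 442, 476 and 407 CPM with dTAG-13, and Tfcp2l1 528, 400, 319 and 379 CPM without and 569, 505, 231 and 345 CPM with it. For Esrrb, 893, 628, 624 and 638 CPM stood against 903, 822, 337 and 596 CPM. Esrrb and Tfcp2l1 were lower with dTAG-13 in C3 and H5 and higher in G4 and H1.

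**Figure D3:**
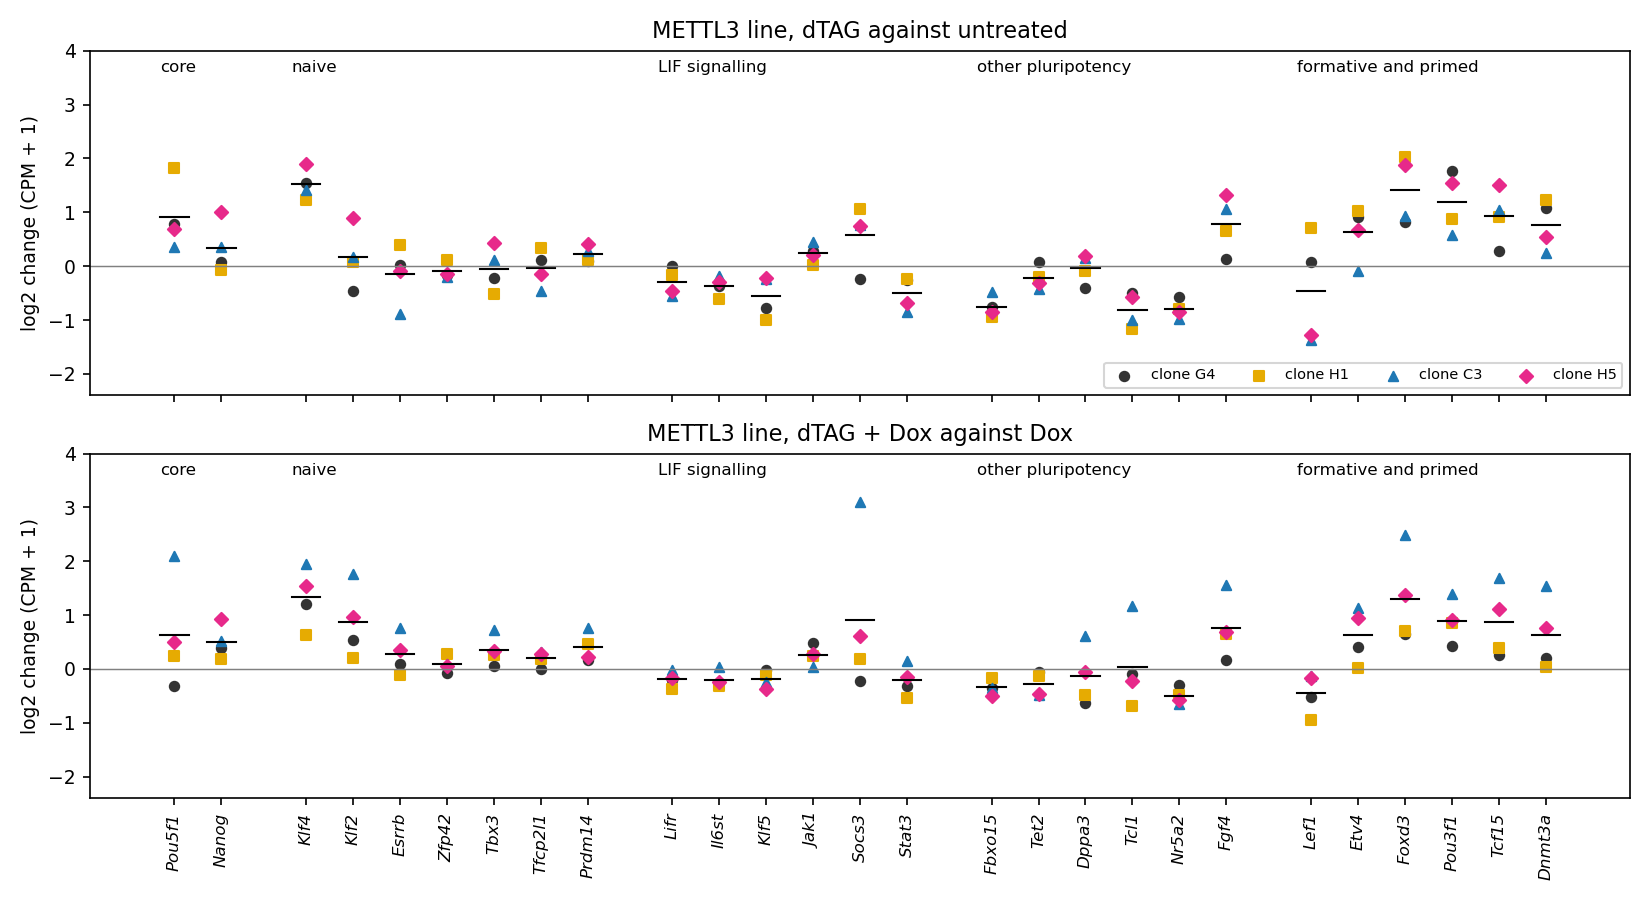
Change in each of the 4 METTL3 clones, as the log2 difference of CPM + 1 with against without dTAG-13, without Dox (top) and with Dox (bottom), for the 9 factors and the genes named from 3 other lists. Each point is a clone, with its own colour and marker, and each bar the mean of the 4 clones. Klf4 lies between 0.64 and 1.94 in every clone, whereas Esrrb runs from -0.88 to 0.76 and Pou5f1 from -0.32 to 2.10.

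The transgene lines asked whether METTL3 put back into clone H5 held the factors in place. With wild-type METTL3 no member was called in either X state. In WT_P2B3 (XX) Klf4 measured 25.9 and 17.3 CPM untreated, 29.6 and 17.9 with dTAG-13, 28.8 and 18.9 with Dox, and 35.4 and 18.8 with both. In WT_1A (XiO) it measured 11.6 and 11.8, 11.2 and 13.7, 17.1 and 12.1, and 18 and 15.1 CPM in the same order. The limma test called 0 of 9 members with dTAG-13 and 0 with dTAG-13 and Dox in each WT line, with 0 at an unadjusted p under 0.05 and 0 by edgeR. No gene at all was called in these 4 comparisons (0.00% of genes), in which 14 to 39 genes reached an unadjusted p under 0.05. The wells of an experiment were split from 1 batch of cells, so the experiment was also fitted as a block, and this again called 0 of 9 members and 0.00% of genes in each of the 4.

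With the catalytic mutant, calls of the members depended on the experiment block and, in D395A_1F, also on the WT_P2B3 libraries of the same fit. Without the block, 0 of 9 members were called by limma or edgeR in either X state. With it 4 and 3 were called lower in D395A_1F (without and with Dox) and 1 and 2 in D395A_9F. When either WT_P2B3 experiment was left out, Esrrb (-0.42, and -0.33 with Dox) and Tbx3 (-0.71 without Dox) were called in D395A_1F without the block. The unadjusted test gave 1 member with dTAG-13 in D395A_1F (XX), 0 with dTAG-13 and Dox there, 0 with dTAG-13 in D395A_9F (XiO) and 1 with dTAG-13 and Dox there. Of all genes, 6.01, 3.19, 0.402 and 0.0521% were called in these 4 comparisons without the block, and 37.5, 29.3, 34.4 and 31.1% with it. Klf4 measured 22.3 and 20.6 CPM untreated and 30.9 and 22.8 CPM with dTAG-13 in D395A_1F, a difference of 0.30, and 23.5 and 25.8 against 26.1 and 34.9 CPM in D395A_9F. With Dox it measured 22.9 and 22.7 against 33.5 and 24.5 CPM in D395A_1F (0.31), and 25.6 and 21.8 against 23.6 and 30.6 CPM in D395A_9F. In D395A_1F both treated libraries lay above both untreated ones, without and with Dox, but the differences did not pass the test with or without the block.

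Esrrb was the member called lower in all 4 mutant comparisons with the block. In D395A_1F it measured 910 and 880 CPM untreated and 661 and 678 CPM with dTAG-13 (-0.42, limma adjusted p = 0.309 without and 0.00129 with the block). With Dox there it measured 782 and 865 against 620 and 689 CPM (-0.33, adjusted p = 0.00821 with the block). In each of these pairs of groups both treated libraries lay below both untreated ones. In D395A_9F the 2 experiments differed by more than the treatment, at 1075 and 574 CPM untreated and 789 and 502 CPM with dTAG-13 (-0.32, adjusted p = 0.0160 with the block). With Dox it measured 1024 and 617 against 707 and 477 CPM (-0.45, adjusted p = 0.00288 with the block). In D395A_1F the summed feeder markers were 493 and 599 CPM untreated and 397 and 438 CPM with dTAG-13, with Lum at 0 in both groups. They summed to 586 to 754 CPM with Dox alone and 540 to 649 CPM with dTAG-13 and Dox. Vim, from the same feeder list, was called lower with dTAG-13 and Dox than with Dox alone (-1.22). The part of the feeder markers in these values was not tested.

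Among the other members in the mutant lines, the unadjusted test without the block named Zfp42 and Prdm14. Zfp42 in D395A_1F measured 415 and 382 CPM untreated and 338 and 240 CPM with dTAG-13 (-0.48, limma adjusted p = 0.128 without and 0.00138 with the block), and it passed the threshold after median-ratio scaling (-0.62, adjusted p = 0.0471). With Dox it measured 372 and 406 against 321 and 311 CPM (-0.30, adjusted p = 0.0333 with the block). Prdm14 in D395A_9F measured 15.7 and 11.9 CPM with Dox and 6.68 and 7.04 CPM with dTAG-13 and Dox (-0.91, adjusted p = 0.184 without and 0.00398 with the block). These last were the lowest Prdm14 levels of all 80 libraries. Tbx3, a T-box factor, measured 31.6 and 43.9 CPM untreated and 24.0 and 21.0 CPM with dTAG-13 in D395A_1F (-0.71, adjusted p = 0.418 without and 0.000447 with the block). With Dox it measured 30.04 and 37.4 against 23.9 and 27.9 CPM (-0.36, adjusted p = 0.0399 with the block). Klf2 there measured 18.9 and 20.2 CPM untreated and 13.4 and 13.8 CPM with dTAG-13 (-0.49, adjusted p = 0.270 without and 0.0101 with the block).

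The difference between mutant and wild-type lines was tested directly within each table. Without the experiment block, for the XX lines 0 of 9 members were called with dTAG-13 and 0 with dTAG-13 and Dox, by limma and by edgeR, with 0 and 0 at an unadjusted p under 0.05. Of all genes, 0.00748 and 0.0150% were called. For the XiO lines 0 and 0 were called by either tool, with 0 and 1 at an unadjusted p under 0.05, where 0.00 and 0.00% of genes were called. The 1 member was Prdm14 with Dox, with a difference of -1.10 (adjusted p = 0.974). With the block, 8 of the 36 member comparisons were called, all with a lower change in the mutant than in the wild type. In the XX lines these were Tbx3 (-0.87, adjusted p = 0.00413), Zfp42 (-0.52, 0.0204) and Esrrb (-0.43, 0.0233) with dTAG-13, against 16.3% of genes. With Dox they were Esrrb (-0.48, adjusted p = 0.0161), Pou5f1 (-0.55, 0.0193) and Tbx3 (-0.60, 0.0397), against 12.1% of genes. The Pou5f1 difference joins an uncalled rise in WT_P2B3 (0.35, limma adjusted p = 0.682) and an uncalled fall in D395A_1F (-0.21, adjusted p = 0.139). In the XiO lines 0 were called without Dox (14.1% of genes) and Esrrb (-0.63, adjusted p = 0.0115) and Prdm14 (-1.10, 0.0253) with Dox (9.30%). Each transgene is carried by 1 clone in each X state, so clone and transgene cannot be told apart here either.

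After loss of YTHDC1 the members called were all lower, and Klf4 was not among them. In the shared table, dTAG-13 called 2 of 9 members, both lower, against 19.0% of genes, and 3 of 9 in the own table, all lower, against 17.8%. Tfcp2l1 measured 314 and 304 CPM untreated (Y9F, Y12H) and 210 and 246 CPM with dTAG-13 in the shared table. The fall was 0.44 on the log2 scale (change of -0.44, SE 0.0663, limma adjusted p = 0.000238). In the own table it measured 213 and 243 CPM untreated and 148 and 185 CPM with dTAG-13 (-0.45, SE 0.0654, adjusted p = 7.20e-05). The treated libraries lay below the untreated ones in each experiment. The call in the shared table was lost without clone Y9F.

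Prdm14 was called lower in both experiments as well. It measured 43.8 and 37.9 CPM untreated against 34.2 and 32.3 CPM with dTAG-13 in the shared table (-0.28, adjusted p = 0.0204), and 26.1 and 28.5 against 20.6 and 22.3 CPM in the own table (-0.33, adjusted p = 0.0137). Tbx3 was called in the own table, with 32.8 and 35.2 CPM untreated and 22.7 and 26.2 CPM with dTAG-13 (-0.46, SE 0.0847, adjusted p = 0.000698). In the shared table Tbx3 measured 66.9 and 62.5 against 58.8 and 57.7 CPM (-0.15, adjusted p = 0.211). The Prdm14 call in the shared table was lost without either clone. The untreated Tbx3 level of the same clones differed between the 2 experiments by more than the change. Klf4 measured 25.4 and 27.9 CPM untreated and 26.0 and 29.8 CPM with dTAG-13 in the shared table (0.06), and 42.8 and 20.7 against 39.0 and 23.1 CPM in the own table (0.01). Klf4 was not called in YTHDC1 in either experiment or Dox state.

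With Dox, loss of YTHDC1 called 2 of 9 members in the shared table, against 15.5% of genes, and 4 of 9 in the own table, against 14.7%, all of them lower. Tfcp2l1 measured 275 and 317 CPM with Dox and 232 and 264 CPM with dTAG-13 and Dox in the shared table (-0.26, adjusted p = 0.0152), and 188 and 213 against 161 and 168 CPM in the own table (-0.28, adjusted p = 0.00660). Klf2, another Krüppel-like factor, measured 15.6 and 17.6 against 11.1 and 15.0 CPM in the shared table (change of -0.34 with adjusted p = 0.0339). In the shared table the calls of Klf2 and Tfcp2l1 with Dox were each lost under 4 of 9 alternative settings, which were no filter on low values, no clone block, and either clone left out. In the own table, where Klf2 measured 22.8 and 20.2 against 23.3 and 20.2 CPM, no change was called (0.02). The other called members of the own table were Tbx3 (35.6 and 39.1 against 27.4 and 27.7 CPM, -0.43, adjusted p = 0.00180), Nanog (40.3 and 44.2 against 33.7 and 33.3 CPM, -0.32, adjusted p = 0.0241) and Prdm14 (22.0 and 24.7 against 18.7 and 19.3 CPM, -0.29, adjusted p = 0.0372). The calls of Nanog and Prdm14 were lost without the filter on low values. Without the clone block no member was called in YTHDC1 with dTAG-13, with or without Dox. With the block Tfcp2l1 was the only member called lower in all 4 of these comparisons, which used the same 2 clones.

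**Figure D4:**
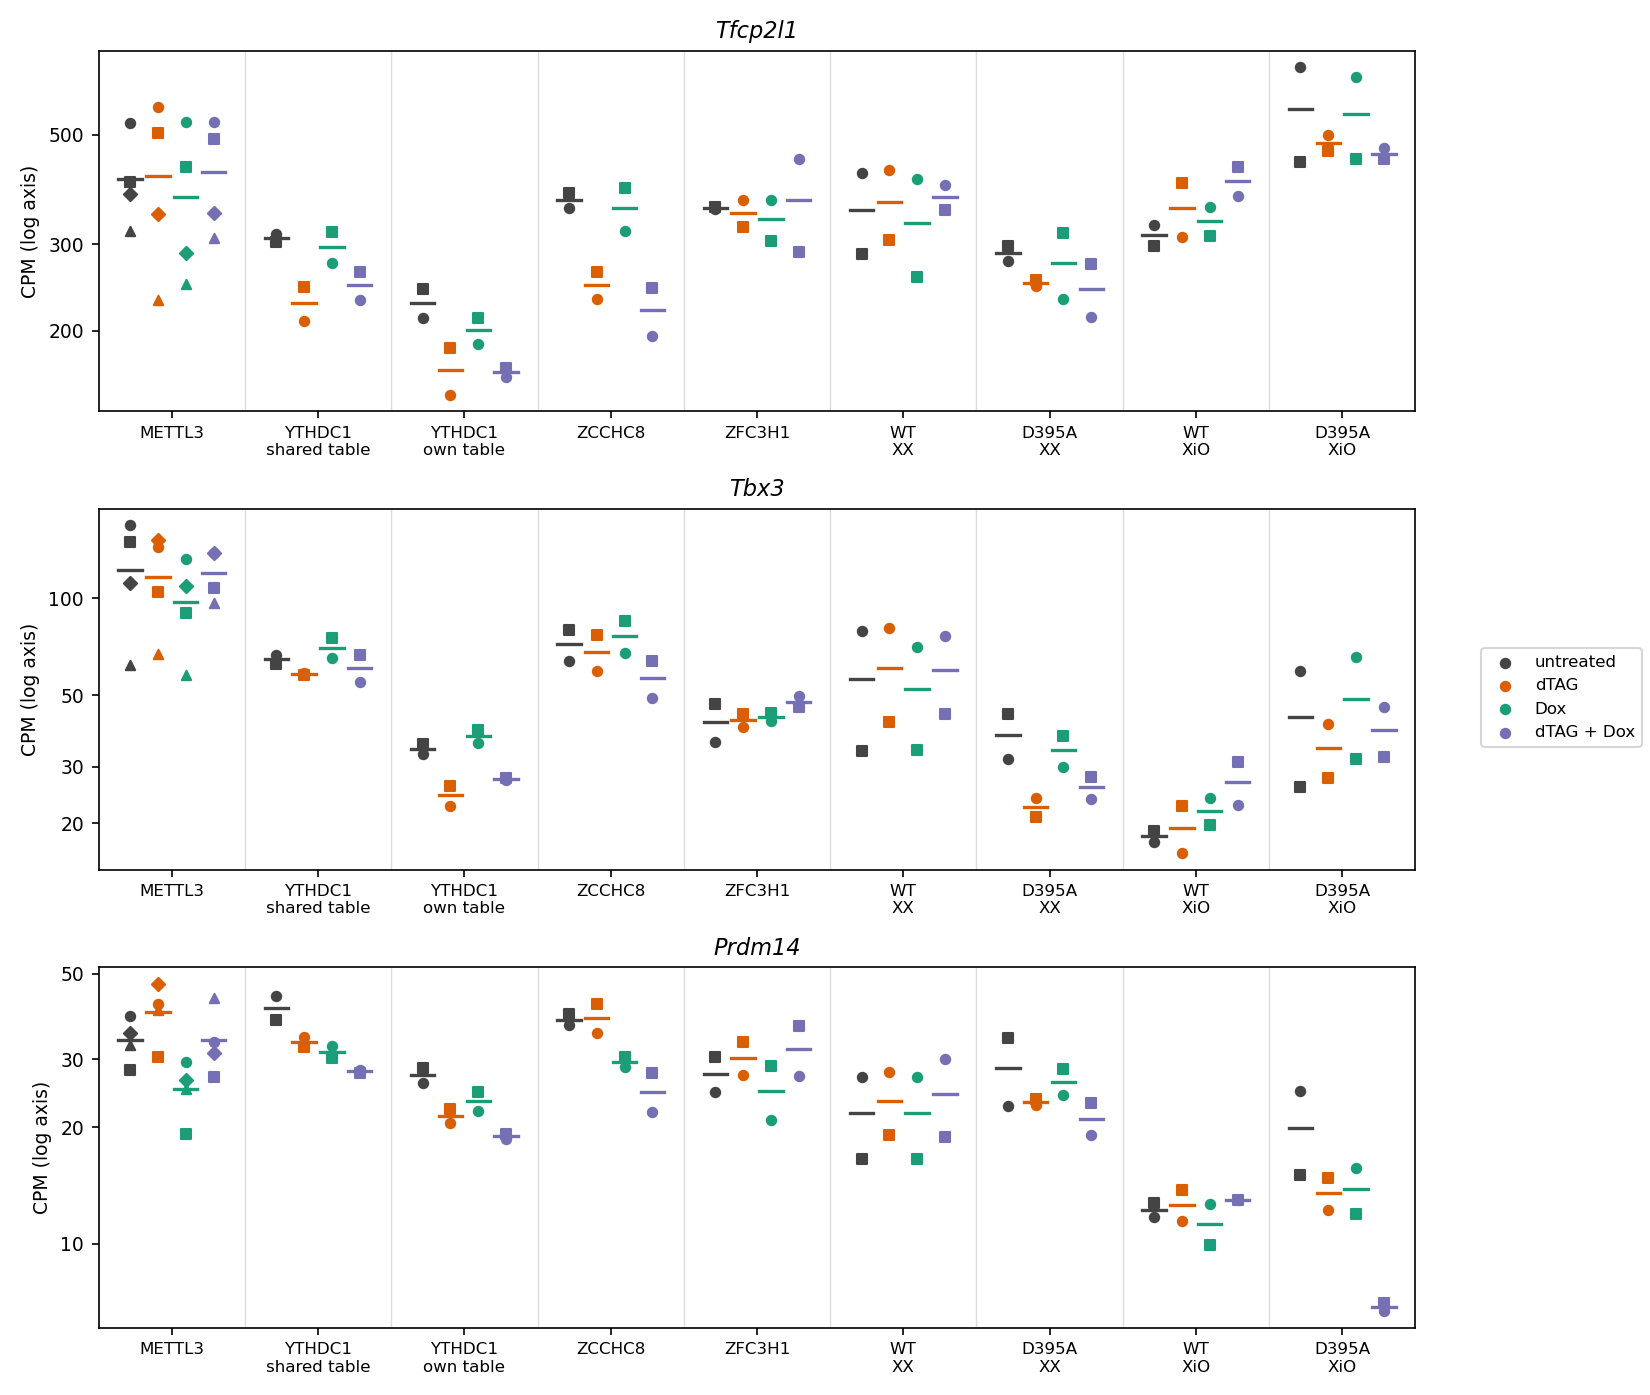
Levels of Tfcp2l1, Tbx3 and Prdm14 in every library, in CPM on log axes, by line and treatment, with points for libraries and bars for group means. For Tfcp2l1 the dTAG-13 libraries of YTHDC1 and ZCCHC8 (148 to 264 CPM) lie below the untreated libraries of the same experiment (213 to 382 CPM).

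Loss of ZCCHC8 lowered Tfcp2l1 too. With dTAG-13 alone it was the only 1 of 9 members called, against 36.1% of genes. It measured 355 and 382 CPM untreated (Z4F, Z12H) and 232 and 264 CPM with dTAG-13 (-0.57, SE 0.0663, limma adjusted p = 6.53e-06). The groups did not overlap, and the call held under all 9 alternative settings. Klf4 measured 22.9 and 22.4 against 18.4 and 21.0 CPM (-0.19, adjusted p = 0.130), and Nanog 53.0 and 54.7 against 59.6 and 68.1 CPM (0.24, adjusted p = 0.0875). Prdm14, lower without YTHDC1, measured 36.9 and 39.2 against 35.0 and 41.7 CPM here (0.01).

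With Dox, loss of ZCCHC8 called 5 of 9 members, all lower, against 40.4% of genes. Tfcp2l1 measured 319 and 390 CPM with Dox and 196 and 245 CPM with dTAG-13 and Dox (-0.69, SE 0.0663, adjusted p = 6.42e-07). Klf4 measured 23.2 and 22.6 against 16.0 and 13.1 CPM (-0.63, SE 0.0970, adjusted p = 8.29e-05), in contrast to its rise in the METTL3 line. Both calls held under all 9 alternative settings.

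The other 3 members called were Tbx3 (67.5 and 85.0 against 49.2 and 63.8 CPM, -0.43, adjusted p = 0.000430), Prdm14 (28.6 and 30.4 against 21.9 and 27.6 CPM, -0.25, adjusted p = 0.0181) and Zfp42 (931 and 996 against 802 and 920 CPM, -0.16, adjusted p = 0.0151). The calls of all 3 were lost without the clone block. Those of Prdm14 and Zfp42 were also lost without clone Z4F, with changes of -0.14 (adjusted p = 0.344) and -0.11 (adjusted p = 0.230). Pou5f1 measured 29.5 and 27.3 against 29.8 and 27.2 CPM (0.01), and the groups overlapped. Esrrb, at 696 and 658 against 671 and 892 CPM, was not called (0.19, adjusted p = 0.183).

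Because YTHDC1 and ZCCHC8 share a table, the difference of their dTAG-13 changes was tested in the same fit. Without Dox 0 of 9 members differed by limma and 1 by edgeR, with 2 at an unadjusted p under 0.05, where 25.1% of genes were called. For Tfcp2l1 the difference there was -0.13 (adjusted p = 0.363). With Dox 2 of 9 members were called, both lower in ZCCHC8, where 29.6% of genes were called. They were Klf4 (-0.72, SE 0.137, limma adjusted p = 0.000869) and Tfcp2l1 (-0.43, SE 0.0937, adjusted p = 0.00260). For Klf4 this call held under all 9 alternative settings. No test crosses tables, so the opposite signs of Klf4 in METTL3 and ZCCHC8 were not tested against each other.

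Loss of ZFC3H1 called no member. The limma test called 0 of 9 with dTAG-13, against 2.15% of genes, and 0 of 9 with dTAG-13 and Dox, against 3.15%. At an unadjusted p under 0.05 there were 2 and 3 members, and edgeR called 1 and 0. The edgeR call was Klf4, which measured 44.8 and 56.8 CPM untreated (8H, 11A) and 34.1 and 37.3 CPM with dTAG-13 (-0.49, SE 0.117, limma adjusted p = 0.0609). With Dox it measured 29.9 and 45.9 against 24.9 and 34.3 CPM (-0.33, adjusted p = 0.166). Tfcp2l1 measured 354 and 356 CPM untreated and 368 and 325 CPM with dTAG-13 (-0.04), and 369 and 305 against 448 and 289 CPM with Dox (0.10). The fall of Tfcp2l1 seen in YTHDC1 and ZCCHC8 was thus not called here, but the lines were not tested against each other. Pou5f1 differed more between the clones, at 101 and 47.6 CPM untreated, than with treatment (74.2 and 44.5 CPM with dTAG-13). Prdm14 was not called at 20.9 and 28.9 against 27.1 and 36.7 CPM with Dox (0.35, adjusted p = 0.101).

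**Figure D5:**
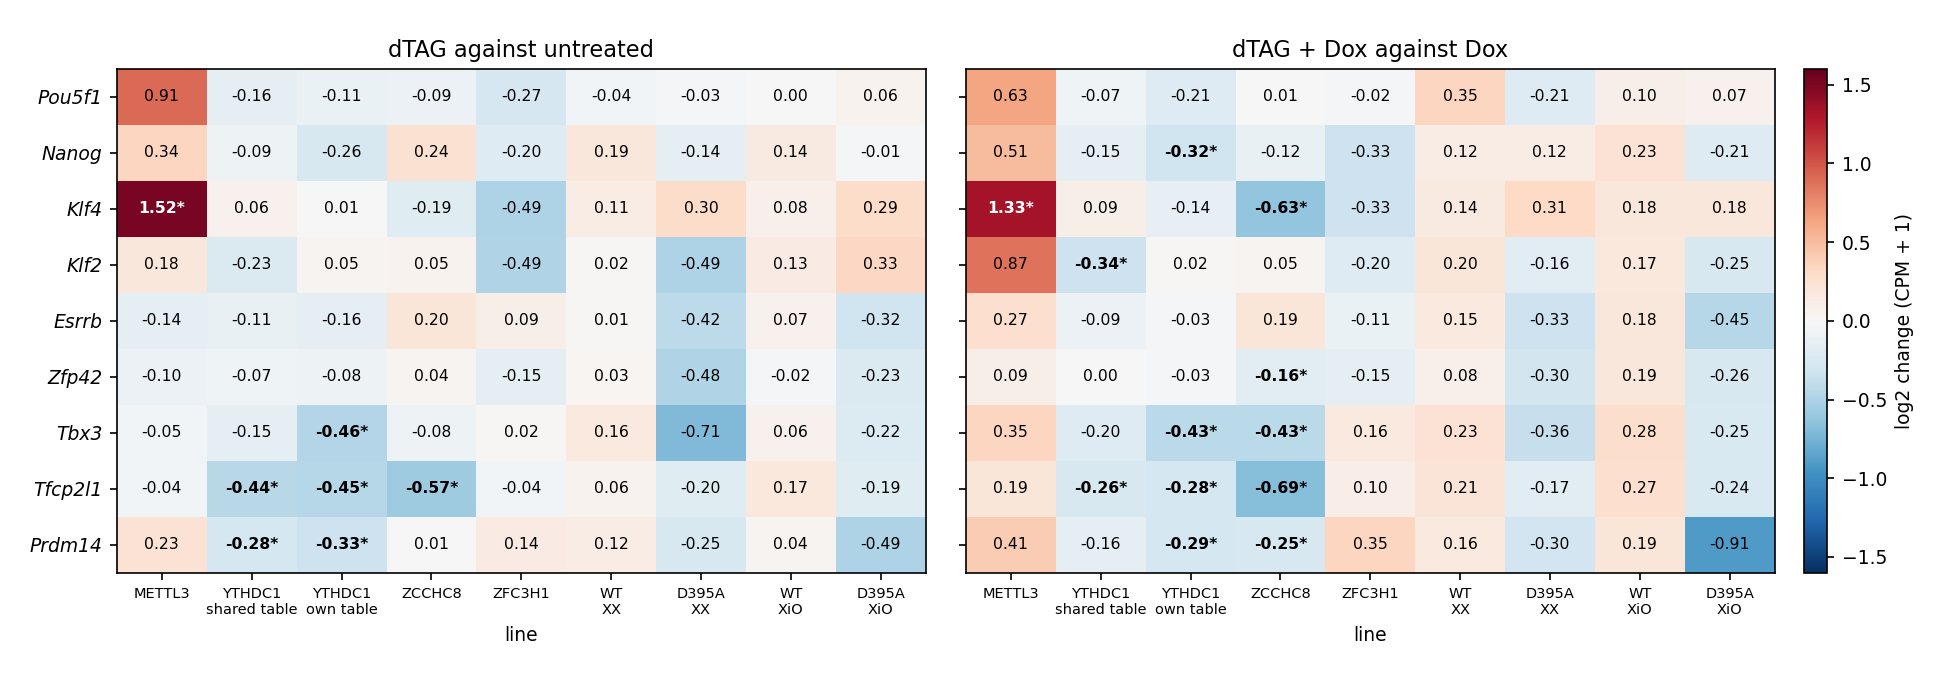
Heat maps of the log2 change (CPM + 1) of each factor in each line, for dTAG-13 against untreated and for dTAG-13 with Dox against Dox. Colour and number give the fitted change, and an asterisk marks a limma adjusted p under 0.05, with no experiment block in the transgene lines. Klf4 in METTL3 (1.52 and 1.33) holds the only rises called, and Tfcp2l1 is called lower in YTHDC1 (-0.44 and -0.45 without Dox) and ZCCHC8 (-0.57 and -0.69).

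Over all 9 sets, dTAG-13 alone called 7 of 81 member and line pairs, 1 higher and 6 lower, in 4 of 9 comparisons. With Dox it called 12 of 81, 1 higher and 11 lower, again in 4 of 9 comparisons. With the experiment as a block in the transgene lines these counts were 12 and 17. Set beside the shares of all genes given above, the 9 members were called at 11.1% in METTL3 with dTAG-13 (23.3% of all genes), 22.2 and 33.3% in YTHDC1 (19.0 and 17.8%) and 11.1% in ZCCHC8 (36.1%). With Dox the shares were 11.1% in METTL3 (10.5%), 22.2 and 44.4% in YTHDC1 (15.5 and 14.7%) and 55.6% in ZCCHC8 (40.4%). With 9 genes, each step of these shares is a single gene. Pou5f1 and Esrrb were called in none of these comparisons, apart from Esrrb in the mutant lines with the experiment block.

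Xist induction alone was the second question, since Dox without dTAG-13 shows whether the factors move over 24 h. Dox called 4 of 81 pairs, 1 higher and 3 lower, in 3 of 9 comparisons. In YTHDC1 it called 2 of 9 members in the shared table, against 12.6% of genes, and 1 of 9 in the own table, against 10.0%. In the shared table Klf2 measured 24.3 and 23.7 CPM untreated and 15.6 and 17.6 CPM with Dox (-0.51, adjusted p = 0.00284), and Prdm14 43.8 and 37.9 against 32.5 and 30.2 CPM (-0.37, adjusted p = 0.00503). In the own table Zfp42 measured 671 and 807 against 812 and 935 CPM (0.24, adjusted p = 0.00854). In ZCCHC8 Dox called 1 of 9, against 10.9% of genes, which was Prdm14 at 36.9 and 39.2 against 28.6 and 30.4 CPM (-0.35, adjusted p = 0.00746). All 4 calls were lost without the clone block. The Klf2 call was also lost without Y9F, and each Prdm14 call without either clone of its line.

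In the METTL3 line Dox called 0 of 9 members by limma and 0 by edgeR, with 2 at an unadjusted p under 0.05 (1262 of all genes), against 0.778% of genes. Prdm14 and Klf2 were nevertheless lower in 4 of 4 clones. Prdm14 measured 38.9, 28.1, 32.8 and 35.0 CPM untreated and 29.5, 19.3, 25.1 and 26.5 CPM with Dox (-0.42, adjusted p = 0.165), and Klf2 41.0, 19.7, 12 and 18.7 against 15.0, 13.6, 8.92 and 12.9 CPM (-0.70, adjusted p = 0.453). In ZFC3H1 Dox called 0 of 9 by either tool, with 4 at an unadjusted p under 0.05, against 1.11% of genes. In the transgene lines it called 0 of 9 in each by either tool, with 0 at an unadjusted p under 0.05, against 0.00748% of genes in WT_P2B3, 1.17% in WT_1A, 0.232% in D395A_1F and 0.580% in D395A_9F.

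The same step was compared in cells that already lacked the tagged protein, as dTAG-13 with Dox against dTAG-13 alone. It called 8 of 81 pairs, 1 higher and 7 lower. ZCCHC8 held 5 of them, against 29.0% of genes. Prdm14 went from 35.0 and 41.7 CPM to 21.9 and 27.6 CPM (-0.62, adjusted p = 2.80e-05), Nanog from 59.6 and 68.1 to 41.8 and 48.4 CPM (-0.49, adjusted p = 0.00246), and Klf4 from 18.4 and 21.0 to 16.0 and 13.1 CPM (-0.42, adjusted p = 0.00427). Tbx3 (-0.27, adjusted p = 0.0187) and Klf2 (-0.32, adjusted p = 0.0270) were the others. Without clone Z12H only Prdm14 of these 5 was called in ZCCHC8, against 13.6% of genes, and the change of Klf4 was -0.20 (adjusted p = 0.290). Without clone Z4F Klf4, Nanog and Prdm14 were called, against 19.1% of genes.

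In YTHDC1 this step called 1 of 9 in the shared table, against 13.4% of genes, and 2 of 9 in the own table, against 7.87%. Klf2 went from 18.9 and 21.8 to 11.1 and 15.0 CPM in the shared table (log2 change -0.61, adjusted p = 0.000633, not called without Y9F) and from 28.2 and 29.3 to 23.3 and 20.2 CPM in the own table (-0.39, adjusted p = 0.0415). Zfp42 went from 655 and 739 to 798 and 912 CPM in the own table (0.29, adjusted p = 0.00217). Both calls in the own table were lost without the clone block, and that of Klf2 also without the filter on low values. In METTL3 this step called 0 of 9 by limma and edgeR, with 1 at an unadjusted p under 0.05, against 1.49% of genes, the 1 being Zfp42 (0.36, adjusted p = 0.0549, higher in 4 of 4 clones). In ZFC3H1 it called 0 of 9 by either tool, with 3 at an unadjusted p under 0.05, against 1.11%. In the transgene lines it called 0 of 9 in each by either tool, against 0.0150% of genes in WT_P2B3, 1.12% in WT_1A, 0.868% in D395A_1F and 1.47% in D395A_9F. There 1 member reached an unadjusted p under 0.05, Prdm14 in D395A_9F (-0.88, adjusted p = 0.166). With the experiment block Prdm14 (adjusted p = 0.00807) and Klf2 (-0.67, adjusted p = 0.0157) were called lower in D395A_9F, against 14.3% of genes, and no member in the other transgene lines.

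Whether the dTAG-13 change itself differed with and without Dox was tested as an interaction. No member passed in any of the 9 sets by limma or edgeR. Unadjusted p-values under 0.05 numbered 5 of 9 members in ZCCHC8 and 0 in each of the other 8 sets. Of all genes, 0.238% were called in ZCCHC8, 0.00722 and 0.0219% in YTHDC1 (shared and own table), and 0.00% in METTL3, ZFC3H1 and each of the 4 transgene lines. In ZCCHC8 the interaction was -0.43 for Klf4 (adjusted p = 0.286), -0.36 for Nanog, -0.35 for Tbx3, -0.26 for Prdm14 and -0.21 for Zfp42. More members called with Dox than without in ZCCHC8 (5 against 1) is therefore not shown to be a difference between the 2 states.

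The wider pathway was read from 78 other genes, in lists chosen with earlier results of these data known. They gave 125 calls among 936 gene and comparison pairs (13.4%), 70 higher and 55 lower, where all genes gave calls in 10.8% of pairs. Without the clone block these shares were 3.95 and 3.91%. Of 8 genes of LIF signalling, loss of METTL3 lowered 4 and raised 0 without Dox, where 23.3% of all genes were called. They were Stat3, the transcription factor of the pathway (-0.50), its target Klf5 (-0.56), and the receptor chains Il6st (-0.36) and Lifr (-0.29), so that Klf4 rose while these fell. With Dox 0 of the 8 were called by limma (10.5% of all genes), and 3 were called lower after median-ratio scaling. Feeder markers differed in the same comparison without Dox. The 14 of them summed to 707 to 1020 CPM untreated and 470 to 929 CPM with dTAG-13, with Lum at 0 in both groups, and Fn1, the fibronectin gene, held most of the sum. Of the 5 tested, Fn1 fell (-0.48, limma adjusted p = 0.0114) and Thy1 rose (0.71, adjusted p = 0.0129) from 0.599 to 1.64 CPM on average, and the part of feeder RNA in the changes of this line was not tested. Loss of ZCCHC8 lowered 3 of 7 and raised 1 without Dox, and lowered 4 and raised 1 with Dox, where 36.1 and 40.4% of all genes were called. Among the feeder markers there, Thy1 rose without Dox (0.53) and Fn1 fell with Dox (-0.28). Il6st went from 179 ± 9.40 to 131 ± 2.14 CPM (SD, n = 2) without Dox (-0.44), and Lifr fell with it (-0.51). Socs3, the feedback inhibitor of the pathway, was the gene raised (0.35 and 0.57). In YTHDC1 the same list gave 2 higher genes and 1 lower gene in the shared table, and 1 lower gene in the own table, with and without Dox alike (14.7 to 19.0% of all genes). After median-ratio scaling the own table without Dox gave 2 higher genes as well.

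Of 18 other pluripotency genes, 17 were tested. Loss of METTL3 raised 4 and lowered 3 without Dox, or 2 and 4 after median-ratio scaling, where 23.3% of all genes were called. With Dox it raised 1 and lowered 2, or 0 and 2 after median-ratio scaling, where 10.5% were called. Fgf4, the growth factor that drives exit from the naive state, went from 50.2 ± 16.1 to 85.6 ± 13.3 CPM (0.79), whereas Nr5a2 (-0.80), Tcl1 (-0.81) and Fbxo15 (-0.75) fell. Fbxo15 was called lower in YTHDC1 (-0.39 and -0.33) and higher in ZCCHC8 (0.47). Tet2, a DNA demethylase, was called lower in YTHDC1 (-0.23 in each table) and ZCCHC8 (-0.24). Loss of ZCCHC8 raised 5 and lowered 3 without Dox, where 36.1% of all genes were called, and the germ and egg factor Dppa3 had the largest rise of the genes named (0.85).

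Of 13 genes of the formative and primed states, loss of METTL3 raised 4 and lowered 0 without Dox (3 and 0 after median-ratio scaling) and raised 3 and lowered 0 with Dox (2 and 0 after that scaling), where 23.3 and 10.5% of all genes were called. Foxd3 went from 3.27 ± 1.94 to 10.7 ± 5.29 CPM (SD, n = 4), a change of 1.41, and Pou3f1 (1.19) and Tcf15 (0.93) rose with it. The share of reads on genes under 3 kb also rose with dTAG-13 in H1 (1.02 to 1.89%), C3 (0.798 to 1.22%) and H5 (1.79 to 3.38%), but not in G4 (2.53 to 2.46%). Its part in the changes of single listed genes of this line, Fgf4 included, was not tested. Dnmt3a, at 0.77, was called only on the deposited scale. Loss of YTHDC1 without Dox raised 3 of 12 in the shared and 3 of 13 in the own table, where 19.0 and 17.8% of all genes were called. Loss of ZCCHC8 raised 4 of 12 without Dox, near the share of all genes (36.1%), and 7 of 12 with Dox (40.4%). It lowered 0 in either state, or 1 with Dox after median-ratio scaling. Without Dox, Etv4, a target of FGF signalling, rose in YTHDC1 (0.41 and 0.61), ZCCHC8 (0.42) and ZFC3H1 (0.70). Lef1, a factor of the Wnt pathway, rose in YTHDC1 (0.59 and 0.56) and ZCCHC8 (0.36). With Dox Lef1 rose in YTHDC1 (0.33 and 0.48) and ZCCHC8 (0.64) but fell in ZFC3H1 (-0.51). Dox alone raised Etv4 in YTHDC1 (0.75 and 0.61) and ZCCHC8 (0.77). It lowered Lef1 in ZCCHC8 (-0.56) and in the own table of YTHDC1 (-0.65). In D395A_1F with dTAG-13 alone Lef1 fell (-0.83), where 6.01% of all genes were called without the block. Of the LIF and other pluripotency genes, Klf5 (-0.82), Lifr (-0.94), Nr5a2 (-0.80) and Tet2 (-0.65) were called lower there as well. Jak1 of the LIF list was called higher (0.64). With Dox Klf5 was again called lower (-0.65). The medians of the formative and primed list were 0.11 in METTL3, where all genes had 0.21, and 0.11, 0.14 and 0.07 in YTHDC1 (shared, own) and ZCCHC8.

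For Klf4 and Tfcp2l1, the genes with the most similar changes were named by the mean absolute difference of log2 change over the 18 dTAG-13 comparisons, among 12670 genes. Closest to Klf4 were Atxn1l (0.162), Tfip11 (0.168) and Cgn (0.171), against a median of 0.358 over all genes. Closest to Tfcp2l1 were Rcn1 (0.0943), H2afy (0.112) and Lap3 (0.118), against a median of 0.318. Many of the 18 comparisons share clones or control libraries, so the likeness is a description.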

How the data were processed

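The members and all gene lists were chosen with earlier results of these data known. The authors aligned strand-specific chromatin RNA reads with STAR to N-masked mm10 after removing rRNA reads with Bowtie2, kept unique alignments, counted them over whole transcript spans with featureCounts, and deposited CPM values per gene made with edgeR, in 6 tables scaled by library size. Deposited tables of allelic ratios were not used, and 12 expression columns matched no sample here. Dividing each CPM by the worth of 1 read gave whole reads for 100% of values within 0.05, the basis of the edgeR runs. Where the treatment label of dTAG-13 alone gives 2 h, the sample titles (26 h) were followed.

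The main test was limma 3.58.1 (R 4.3.3, trend) on log2(CPM + 1), over genes whose mean reached 1 CPM, fitted separately in each table, two-sided, with Benjamini-Hochberg adjustment over all genes tested and calls at an adjusted p under 0.05. The pseudocount understates the change of low genes. Clones were blocks in the degron lines, since same-numbered libraries are the same clone. Deviations of a clone correlated between treatments with medians of 0.358 to 0.596 in METTL3 (single pairs from -0.18), 0.398 and 0.724 in YTHDC1, 0.538 in ZCCHC8 and 0.871 in ZFC3H1. The transgene lines were fitted without a block, and also with the experiment as a block, since the study states that the wells of a replicate came from one batch of cells (deviations correlated at 0.427 to 0.917). Differences between untreated lines were fitted without a block. Alternatives were a pseudocount of 0.1 CPM, no filter, median-ratio scaling, edgeR 4.0.16 quasi-likelihood tests, the other block, a short-gene covariate in METTL3 and each clone or experiment left out. The comparisons of dTAG-13 with Dox against dTAG-13 alone, and between untreated clones, were added after seeing the data. The code was tested on simulated data. Named genes were all 10 members, listed genes called one way in both dTAG-13 contrasts of at least 2 lines, up to 4 more per list with the largest called change, and the 3 genes most like a member.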

Additional observations from a re-analysis of the deposited data

Results flagged for a closer look

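In the METTL3 line, 8 of 72 sets of 4 clones had a clone standing apart by Dixon's criterion, where chance gives about 1 in 20 for a single set. The sets share clones and libraries, so the count cannot be set against that rate. Pou5f1 with dTAG-13 was 31.5 CPM in C3 (others 46.5 to 49.2), and untreated Esrrb was 893 CPM in G4 (others 624 to 638). The dTAG-13 change of Zfp42 was 0.12 in H1 (others -0.19 to -0.15). The Dox change of Klf4 was 0.69 in H1 (others 0.08 to 0.13), that of Klf2 -1.39 in G4 (others -0.50 to -0.39) and that of Prdm14 -0.52 in H1 (others -0.39 to -0.37). The Dox change within dTAG-13 was 1.19 for Klf2 in C3 (others -0.43 to -0.38) and 0.89 for Esrrb in C3 (others -0.26 to -0.09). In C3 the share of reads on genes under 3 kb was 1.22% with dTAG-13 and 4.57% with dTAG-13 and Dox, and its part in these values was not tested.

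The dTAG-13 change with Dox differed between ZCCHC8 and YTHDC1 by -0.72 for Klf4 and -0.43 for Tfcp2l1 in the limma fit of their shared table. Klf4 with dTAG-13 and Dox moved by 1.33 in METTL3, higher in 4 of 4 clones, and by -0.63 in ZCCHC8, lower in 2 of 2, and this difference, which crosses tables, was not tested.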

How the results depend on the processing

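Of 34 called member changes, 210 of 267 alternative values kept direction and call, 57 kept direction only, and 0 reversed. Of 3765 alternative values of uncalled changes, 57 became calls and 5.50% turned sign. Klf4 in METTL3 with dTAG-13, Klf4 in ZCCHC8 with Dox and against YTHDC1, Prdm14 in ZCCHC8 on adding Dox to dTAG-13, and Tfcp2l1 in ZCCHC8 with and without Dox kept their calls under every alternative run. Without the clone as a replicate block, members called fell from 7 to 2 with dTAG-13, from 12 to 2 with dTAG-13 and Dox, from 4 to 0 with Dox, from 8 to 4 for Dox added to dTAG-13, and from 2 to 1 between ZCCHC8 and YTHDC1, and the other listed genes from 125 to 37. In the transgene lines, a replicate block for the experiment raised the dTAG-13 count from 7 to 12, the mutant against wild-type differences from 0 to 8 and the listed genes from 125 to 217. The share of all genes called with dTAG-13 rose as well, from 6.01 to 37.5% in D395A_1F and from 0.402 to 34.4% in D395A_9F. For the differences without Dox it rose from 0.00748 to 16.3% (XX) and from 0.00 to 14.1% (XiO). With Dox it rose from 0.0150 to 12.1% and from 0.00 to 9.30%.

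With single clones or experiments left out, the counts ran from 6 to 9 with dTAG-13, from 10 to 13 with dTAG-13 and Dox, from 2 (without Y9F in the shared table) to 4 with Dox, from 5 (without Z12H) to 9 for Dox added to dTAG-13, and from 0 to 2 for untreated differences, which were 0 without any 1 XiO experiment and 2 without either experiment of WT_P2B3. A sample left alone in its group was assumed to vary like the others. The causes were not tested. In 4 such fits, of YTHDC1 (own table) and ZFC3H1, no residual degrees of freedom remained, so no test was made. Uncalled members may have moved by amounts that 2 clones or 2 experiments a group do not resolve.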

Other observations

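Over the 80 libraries, the 7 endoderm markers summed to 16.1 to 56.3 CPM, the 6 neurectoderm markers to 3.87 to 39.5 CPM, the 5 trophoblast markers to 6.33 to 37.7 CPM, the core factors to 51.7 to 146 CPM and the 7 naive factors, mostly Esrrb, Zfp42 and Tfcp2l1, to 755 to 2332 CPM. In WT_1A the mesoderm markers (44.8 and 90.2 CPM untreated) stood beside core factors at 75.3 and 83.9 CPM. In the METTL3 line, Nes, an intermediate filament gene of neural progenitors, rose with dTAG-13 (1.33, limma adjusted p = 0.00204) and with dTAG-13 and Dox (1.01, adjusted p = 0.0182), and Eomes, a T-box factor of mesendoderm, rose in both comparisons (0.55 and 0.90). The rise of Eomes without Dox was not called after median-ratio scaling (0.34, adjusted p = 0.120). Of all genes, 23.3 and 10.5% were called in METTL3 without and with Dox. Of the listed markers, 4 of endoderm, 2 of mesoderm, 2 of neurectoderm and 2 of trophoblast reached a mean of 1 CPM. In ZCCHC8, Pax6 (0.55 and 0.41) and Dab2 (0.33 and 0.45) rose, where 36.1 and 40.4% of all genes were called. Dox alone also raised Dab2, in ZCCHC8 (0.38) and in the shared table of YTHDC1 (0.34). In YTHDC1 the trophoblast and germline factor Tfap2c fell without Dox in both tables (-0.31 and -0.51), where 19.0 and 17.8% of all genes were called.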
